A study of Mus musculus with 6 samples.

Results

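EpCAM+ liver cells of a DDB1F/F;Alb-Cre+/- mouse were set against EpCAM+ liver cells of DDC-treated wild type mice, 1 array each, over the genes whose signal passed a detection p under 0.05 on at least 1 of the 2 arrays. These were 11143 of the 12379 genes measured on the 6 arrays of the series. The Alb-Cre+/- cells came from mice 6 weeks old that carried floxed DDB1 alleles and 1 copy of a Cre transgene driven by the albumin promoter, which acts in hepatocytes. By the study's description, DDB1-positive hepatocytes take the place of DDB1-deficient ones in these mice at that age. The DDC cells came from mice fed a diet with 3,5-diethoxycarbonyl-1,4-dihydro-collidine, a porphyrinogenic compound that injures hepatocytes and bile ducts, and the labels give no age for them. All mice were of a mixed C57BL/6 x 129 background. The labels give the tissue as mammary, whereas the study's methods and the signals are of liver. Cells were sorted from the non-parenchymal fraction of collagenase-perfused liver after lysis of red blood cells; the methods name antibodies to EpCAM and to the macrophage antigen F4/80, and the labels name the EpCAM antibody alone. The study describes the sorted Alb-Cre+/+ cells, and the Mx1-Cre donor cells it transplanted, as F4/80-negative. Whether that gate was used for the Alb-Cre+/- and DDC sorts, or for the cells of the Mx1-Cre array, is not stated. How many mice stood behind an array is not stated either. The remaining arrays, given as levels where they bear on a gene, were EpCAM+ cells of DDB1F/F;Alb-Cre+/+ mice 4 weeks old, EpCAM+ cells of DDB1F/F;Mx1-Cre+/- mice (an inducible Cre), hepatocytes of Alb-Cre+/+ mice and hepatocytes of wild type mice. In its staining and transplant work the study induced Mx1-Cre in adult mice with poly(I:C) and used them 6 weeks later. Whether the mice of the Mx1-Cre array followed that schedule is not stated. No condition had a replicate array, so no difference between the 2 arrays has a p-value, and genotype, diet, age and animal cannot be told apart.

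Oval cells are ductular progenitor-like cells that expand when hepatocytes cannot replace themselves, and EpCAM, an adhesion molecule of bile duct epithelium, is widely used to sort them. DDB1 is the adaptor of the CUL4 ubiquitin ligase. The same non-parenchymal fraction holds Kupffer cells, the resident macrophages of the sinusoids, and sinusoidal endothelial cells, whose scavenger receptors clear proteins and immune complexes from portal blood. Hepatocytes, the main parenchymal cells, make most plasma proteins. RNA of each of these cell types in a sorted fraction can be read from genes that define them.

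Signals are quantile normalized bead intensities, raised to a common floor of 114, and each gene is read at 1 probe. Of the 11143 genes, 9188 were above background on both arrays, 913 on the Alb-Cre+/- array alone and 1042 on the DDC array alone. The other 1236 measured genes were above background on neither. Over 2-fold higher in Alb-Cre+/- were 634 genes, 5.69% of those compared, and 511 genes, or 4.59%, were lower past the same threshold. Of these, 106 higher and 49 lower genes had a background signal on the other array, so that their fold is a lower bound, written here as "at least". A fold against a signal that was above background but raised to the floor is written in the same way. Past 4-fold were 128 genes higher and 66 lower, and past 10-fold 24 higher and 4 lower. The median log2 difference over all genes was 0.01, and 71.8% of the genes above background on both arrays lay within 1.5-fold. With median scaling in place of quantile normalization the median moved to -0.10 and the split to 473 higher and 868 lower, or 35.3% of calls higher against 55.4%. Normexp background correction gave 1100 higher and 1029 lower. The standard error over beads gave a log2 difference a median error of 0.13, which covers the beads of an array and not the spread between mice. Across genes the 2 arrays correlated at r = 0.942, and the Alb-Cre+/- array with the other EpCAM+ arrays at 0.947 and 0.956. Genes are not independent replicates.

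**Figure D1:**
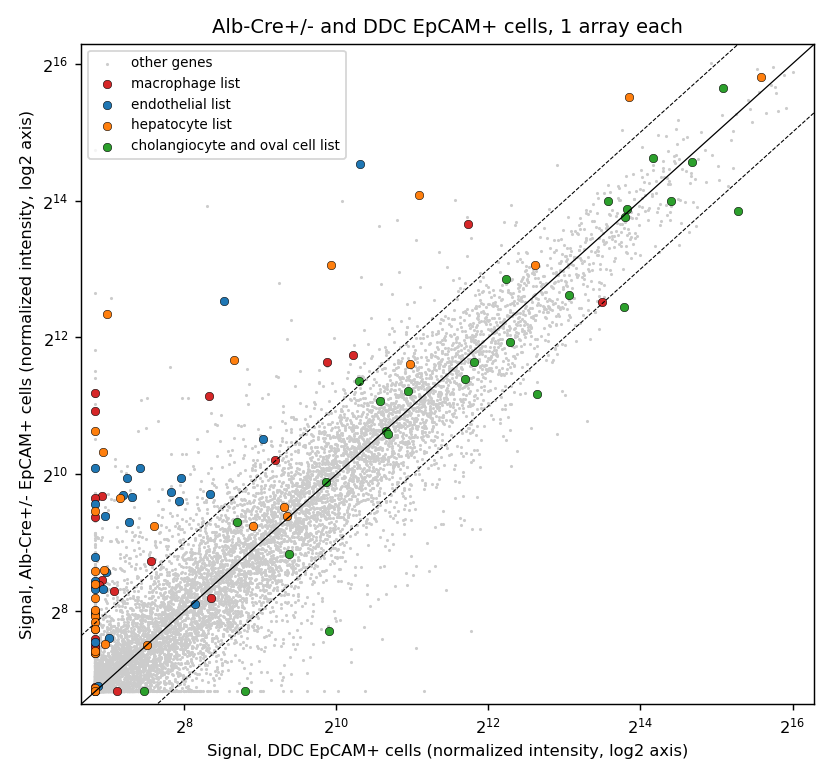
Normalized signal of each gene in Alb-Cre+/- EpCAM+ cells (vertical, log2 axis) against DDC EpCAM+ cells (horizontal, log2 axis), 1 array each, with the macrophage, endothelial, hepatocyte and cholangiocyte lists in colour. The solid line marks equal signal and the dashed lines 2-fold. Macrophage, endothelial and hepatocyte genes lie on or above the equal line with few exceptions, and the genes stacked at the left edge were at the floor of 114 after DDC.

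Macrophage genes were higher in Alb-Cre+/- than in DDC EpCAM+ cells. Of 24 list members above background on at least 1 of the 2 arrays, 15 (62.5%) were over 2-fold higher and 0 lower, beside 5.69% and 4.59% of all genes. The median log2 difference was 1.5, against 0.01 over all genes. Above background were 22 members in Alb-Cre+/- and 16 in DDC, with a summed signal of 38388 and 19411. Single bright genes weighed heavily in these sums, with Laptm5 at 12990 in Alb-Cre+/- and Cd14 at 11499 in DDC. In sorted bulk RNA, fewer cells of a type and less RNA per cell cannot be told apart. These lists, and the choice of this comparison, were made with earlier results of these arrays known.

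Vsig4 and Clec4f, both defining Kupffer cell genes, gave the widest gaps of the list. Vsig4, a complement receptor of resident macrophages, read 2326 in Alb-Cre+/- and stayed at background in DDC, so that it was at least 20.4-fold higher. Clec4f, a lectin that in mice marks Kupffer cells, read 1950 in Alb-Cre+/-, with no signal above background in DDC, at least 17.1-fold. Adgre1, the gene of F4/80, read 664 in Alb-Cre+/- and was not above background in DDC, at least 5.83-fold. Thus the gene of the antigen named beside EpCAM in the sort was measured on the Alb-Cre+/- array. The other probe of Adgre1 gave a log2 bound of 2.60, beside 2.54 at the probe read. Csf1r, the receptor that macrophages need for survival, was above background on both arrays, at 1182 in Alb-Cre+/- and 583 in DDC, 2.03-fold, and fell short of 2-fold in 4 of 11 alternative settings. Cd68 had no probe in the annotation used here.

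Secreted and opsonic genes of the same cells followed. Fcna, the gene of ficolin A, read 808 in Alb-Cre+/- and sat at the floor in DDC, at least 7.10-fold. Cfp, properdin of the alternative complement pathway, read 2275 in Alb-Cre+/- and 321 in DDC, 7.08-fold. For the C1q chains, C1qb read 821 in Alb-Cre+/- and 121 in DDC, and C1qa 333 in Alb-Cre+/- and 118 in DDC. C1qc read 181 in Alb-Cre+/- and was not above background in DDC, a bound of at least 1.59-fold. All 3 chains thus had the higher signal in Alb-Cre+/-, with C1qc short of 2-fold.

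Among phagocyte genes, Lyz2, lysozyme M, read 3191 in Alb-Cre+/- and 938 in DDC. Mpeg1, the pore-forming perforin-2, read 3439 in Alb-Cre+/- and 1194 in DDC. Laptm5, a lysosomal membrane protein of blood cells, read 12990 in Alb-Cre+/- and 3396 in DDC. These were 3.40-, 2.88- and 3.83-fold higher in Alb-Cre+/-. Timd4, a receptor for dying cells, was 2.92-fold higher, and Cd163, the receptor that clears haemoglobin bound to haptoglobin, at least 2.90-fold. Ctss, cathepsin S, and Tyrobp, an adaptor of myeloid receptors, were 2.33- and 2.25-fold higher.

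The list did not move as a block. Cd14, the lipopolysaccharide co-receptor, read 5856 in Alb-Cre+/- and 11499 in DDC, 1.96-fold lower. With median scaling it passed 2-fold and was the 1 macrophage gene called lower. Aif1 read 292 in Alb-Cre+/- and 327 in DDC, and Fcer1g stayed at background in Alb-Cre+/- and read 139 in DDC. Marco, Msr1 and Folr2, scavenger and folate receptors, read 194, 176 and 169 in Alb-Cre+/-, where Marco and Folr2 were at background in DDC, and none of their folds passed 2. Fcgr1, an Fc receptor, and Itgam, the gene of CD11b, were above background on neither array.

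Set beside the other sorted fractions, the macrophage genes split into a part shared with Alb-Cre+/+ and a part higher in Alb-Cre+/- than on each other EpCAM+ array. Laptm5 read 17060 and Cfp 3941 in Alb-Cre+/+ EpCAM+ cells, both above the Alb-Cre+/- signal. Timd4 read 516 and Tyrobp 469 there, and Csf1r 1079. By contrast, 7 members (Adgre1, C1qc, Cd163, Cx3cr1, Folr2, Marco and Vsig4) were above background in Alb-Cre+/- and on no other EpCAM+ array. Of these, Cx3cr1 read 118, beside the floor of 114, and Folr2, C1qc and Marco read 194 or less. In 9 (Adgre1, C1qa, C1qb, Cd163, Clec4f, Fcna, Lyz2, Mpeg1 and Vsig4) the Alb-Cre+/- signal was over 2-fold above that of each other EpCAM+ array. Neither count was made over all genes. Hepatocytes of the Alb-Cre+/+ mutant carried genes of both groups too, with Vsig4 at 1994, Clec4f at 2384, Adgre1 at 902 and C1qb at 962, and wild type hepatocytes had 326, 767, a background signal and 265. Over DDC, 5 macrophage genes were over 2-fold higher and 0 lower of 17 in Alb-Cre+/+, where 7.77% of all genes were higher and 7.78% lower, and 1 was higher and 1 lower of 17 in Mx1-Cre, where the shares of all genes were 5.08% and 4.71%. The 3 comparisons share the DDC array.

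**Figure D2:**
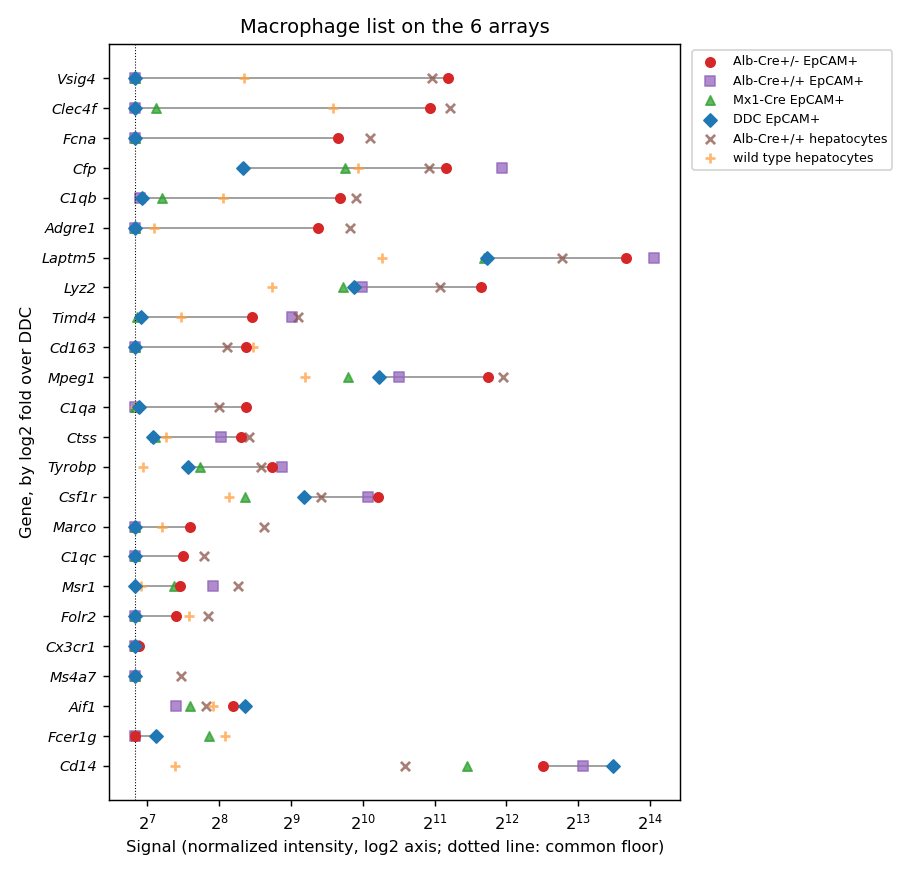
Normalized signal (horizontal, log2 axis) of the macrophage genes above background on at least 1 of the 2 arrays, on each of the 6 arrays, ordered by log2 fold of Alb-Cre+/- over DDC. Grey lines join the 2 arrays compared, and the dotted line is the floor of 114. Vsig4, at 2326, and Clec4f, at 1950, stood apart from the other EpCAM+ arrays in Alb-Cre+/-, whereas Laptm5 and Cfp were higher still in Alb-Cre+/+.

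Of the 15 macrophage genes past 2-fold, 11 had a promoter in the RefSeq table (GRCm38.p6), read as the 250 bases before the gene start. The purine-rich motif GAGGAAG, of the type bound by the myeloid factor PU.1, was searched on both strands (CTTCCTC on the other) and stood in 2 of the 11, against 10.6% of all 32851 windows. Those 2 are printed since they show what such a match looks like beside the genes' signals, with the motif in capitals. In Fcna, 2 of the 3 matches overlap and share a base.
Fcna (chr2:25627975-25628224, minus strand): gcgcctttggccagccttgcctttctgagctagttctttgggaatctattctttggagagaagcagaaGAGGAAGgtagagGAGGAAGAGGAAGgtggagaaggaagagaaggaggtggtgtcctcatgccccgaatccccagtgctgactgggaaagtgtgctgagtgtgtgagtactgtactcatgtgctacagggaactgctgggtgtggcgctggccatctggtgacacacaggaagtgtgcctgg
Laptm5 (chr4:130913066-130913315, plus strand): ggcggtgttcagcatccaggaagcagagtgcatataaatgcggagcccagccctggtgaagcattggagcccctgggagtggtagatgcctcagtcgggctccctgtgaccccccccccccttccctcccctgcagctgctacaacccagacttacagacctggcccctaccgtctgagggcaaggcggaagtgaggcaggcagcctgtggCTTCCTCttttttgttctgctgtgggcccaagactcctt
A match of 7 bases is a description of the letters, and binding was not measured.

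Endothelial genes were higher in Alb-Cre+/- across nearly the whole list. Of 30 members, 23 (76.7%) were over 2-fold higher and 0 lower, beside 5.69% and 4.59% of all genes. The median log2 difference was 1.61. All 30 were above background in Alb-Cre+/- and 22 in DDC, and the summed signal was 45318 in Alb-Cre+/- and 5329 in DDC. Scavenger and lectin receptors of the sinusoid led. Gpr182, an atypical chemokine receptor of sinusoidal endothelium, read 5899 in Alb-Cre+/- and 367 in DDC, 16.1-fold. Stab2, the hyaluronan scavenger receptor, read 1092 in Alb-Cre+/- and was not above background in DDC, at least 9.59-fold. Lyve1, also a hyaluronan receptor, read 442 in Alb-Cre+/- with a background signal in DDC, at least 3.88-fold. Clec4g, the lectin LSECtin, had the brightest signal of the list, 23780 in Alb-Cre+/- and 1275 in DDC, and so a large part of the Alb-Cre+/- sum. Stab1 was 2.60-fold and Fcgr2b, the inhibitory Fc receptor that takes up immune complexes, 3.20-fold higher in Alb-Cre+/-, although 1 other probe of Fcgr2b gave no difference (log2 0.00).

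General endothelial genes went the same way. Ptprb, the phosphatase that binds VE-cadherin, read 984 in Alb-Cre+/- and 151 in DDC. Robo4, a guidance receptor of vessels, read 1090 in Alb-Cre+/- and 171 in DDC. Ramp2, a partner of the adrenomedullin receptor, read 833 in Alb-Cre+/- and 146 in DDC. These 3 were 6.50-, 6.37- and 5.71-fold higher in Alb-Cre+/-. Dnase1l3, a secreted nuclease, was at least 6.69-fold higher and Oit3 5.12-fold. Mrc1, the mannose receptor CD206, which sinusoidal endothelium and macrophages both make, read 673 in Alb-Cre+/- and 124 in DDC. The clotting factors Vwf and F8 were 4.09- and 3.76-fold higher, with a log2 difference of 0.01 at 1 other probe of F8. Esam, Icam2, Egfl7 and Sox18 lay between 2.63- and 3.97-fold higher, and Plvap at least 3.05-fold. Flt1, a VEGF receptor, was at least 2.82-fold, Emcn at least 2.20-fold and Eng at least 2.16-fold higher.

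Pecam1, the gene of CD31, read 256 in Alb-Cre+/- and lay at the floor in DDC, at least 2.24-fold, but its other probe gave a log2 difference of 0.02. Cdh5, VE-cadherin, read 187 in Alb-Cre+/- and was not above background in DDC, at least 1.64-fold. Kdr, the main VEGF receptor, was dim on both arrays, at 120 in Alb-Cre+/- and 117 in DDC. Wnt2 read 275 in Alb-Cre+/- and 282 in DDC. Of the defining markers, Cdh5 and Kdr thus stayed short of 2-fold while Stab2, Clec4g, Lyve1 and Pecam1 passed it.

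Unlike the macrophage genes, the endothelial genes were high in all 3 mutant fractions. In 0 of the 30 was the Alb-Cre+/- signal over 2-fold above each other EpCAM+ array, and the DDC signal was the highest of the 4 in 0. Neither count was made over all genes. Over DDC, 18 of 28 were over 2-fold higher in Alb-Cre+/+ and 18 of 29 in Mx1-Cre, with 0 lower in either. Of all genes, 7.77% were higher and 7.78% lower in Alb-Cre+/+, and 5.08% and 4.71% in Mx1-Cre. Alb-Cre+/+ cells summed to 34443 and Mx1-Cre cells to 26689, between the sums of the 2 arrays compared. Ptprb read 1197 in Alb-Cre+/+ and 546 in Mx1-Cre, and Stab2 1024 in Alb-Cre+/+ and 671 in Mx1-Cre. Rspo3, a Wnt enhancer secreted by central vein endothelium, was above background in Alb-Cre+/- (214) and on no other EpCAM+ array.

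**Figure D3:**
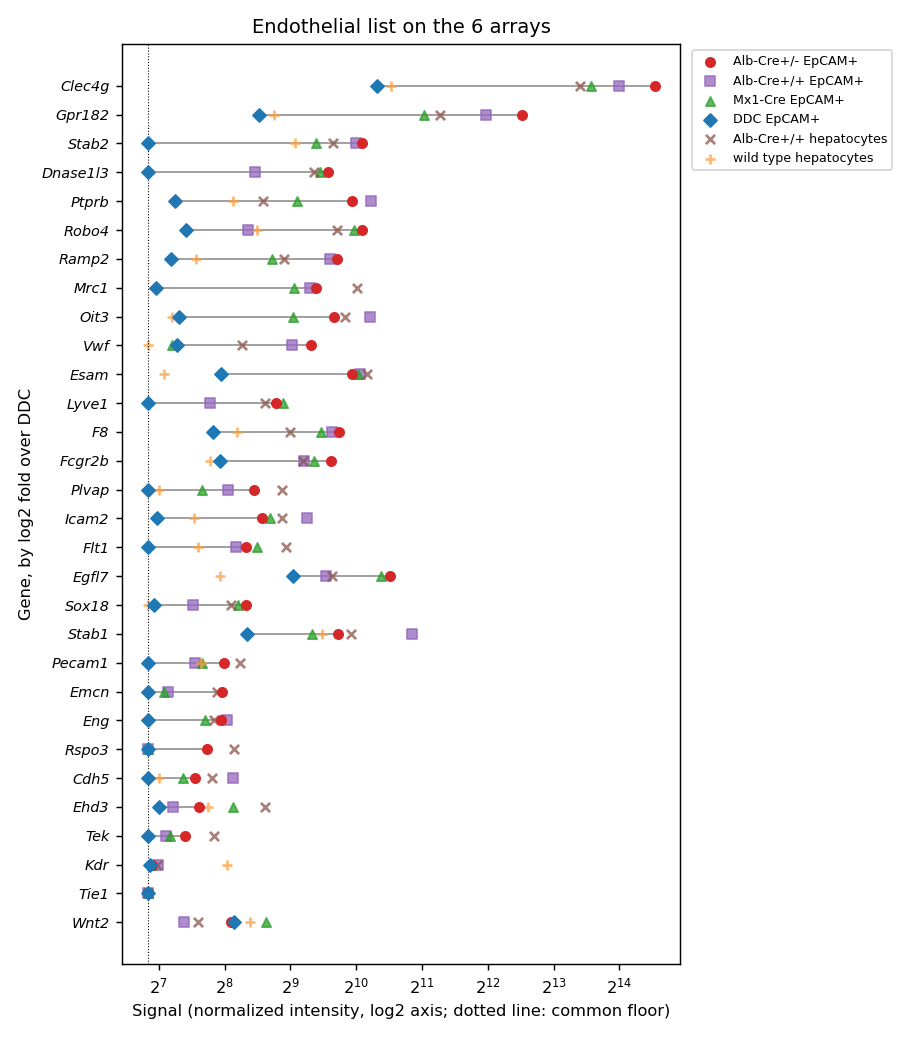
Normalized signal (horizontal, log2 axis) of the 30 endothelial genes on each of the 6 arrays, ordered by log2 fold of Alb-Cre+/- over DDC, with grey lines joining the 2 arrays compared and the floor of 114 dotted. The DDC marks lie to the left of the 3 mutant fractions in most rows, down to Kdr, Tie1 and Wnt2, where the arrays nearly coincide or DDC is not the lowest.

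Hepatocyte genes were higher in Alb-Cre+/- as well. Of 30 members above background on at least 1 of the 2 arrays, 17 (56.7%) were over 2-fold higher and 0 lower. Of all genes, 5.69% were higher and 4.59% lower. The median log2 difference of the list was 1.19. Above background were 30 members in Alb-Cre+/- and 17 in DDC. The summed signal was 159994 in Alb-Cre+/- and 78511 in DDC, beside 719147 in wild type hepatocytes. Most of both EpCAM+ sums came from Ambp (57308 in Alb-Cre+/-, 49186 in DDC) and Ttr (46560 in Alb-Cre+/-, 14735 in DDC). The sums therefore do not give a share of hepatocyte RNA. Over the 37 markers measured, the median share of the wild type hepatocyte signal was 4.85% for Alb-Cre+/- cells, 2.97% for Alb-Cre+/+ cells, 2.33% for Mx1-Cre cells and 1.60% for DDC cells, where signals at the floor enter at the floor. The medians of Alb-Cre+/+, Mx1-Cre and DDC cells fell on markers not above background there. Those medians are thus set by the background and are not measured shares. Of the 17 genes past 2-fold, 9 were above background on both arrays.

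Plasma protein genes had the largest folds. Apoa1, the main protein of high-density lipoprotein, read 5169 in Alb-Cre+/- and 127 in DDC, 40.7-fold. This was 9.02% of the wild type hepatocyte signal in Alb-Cre+/- and 0.222% in DDC. Kng1, kininogen, read 8493 in Alb-Cre+/- and 977 in DDC, 8.70-fold. Vtn, vitronectin, read 3277 in Alb-Cre+/- and 401 in DDC, 8.17-fold. Ahsg, fetuin-A, read 17264 in Alb-Cre+/- and 2181 in DDC, 7.91-fold, or 47.7% of the wild type hepatocyte signal in Alb-Cre+/- and 6.02% in DDC. Itih3, an inter-alpha-trypsin inhibitor chain, read 1590 in Alb-Cre+/- and was not above background in DDC, at least 14.0-fold. Apoc3 was at least 6.18-fold higher, Apoh 5.67-fold, Ttr, transthyretin, 3.16-fold and F2, prothrombin, at least 3.37-fold. These genes differed widely in how close they came to the hepatocyte level.

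The other 8 hepatocyte genes past 2-fold act in metabolism. Arg1, arginase of the urea cycle, read 1282 in Alb-Cre+/- and 123 in DDC, 10.5-fold. Its other probe gave a log2 difference of 0.88. Ass1 was 3.12-fold and Cps1 at least 2.29-fold higher, with a log2 value of 0.10 at the other probe of Cps1. G6pc, which releases glucose, was 3.15-fold higher. The cytochromes Cyp1a2, Cyp2e1 and Cyp8b1 read 337, 244 and 230 in Alb-Cre+/- and were not above background in DDC, with bounds of at least 2.96-, 2.15- and 2.02-fold. The other probe of Cyp1a2 gave a log2 value of 0.47. In wild type hepatocytes Cyp2e1 read 55925, so that its Alb-Cre+/- signal was 0.437% of it. Hpd was at least 2.57-fold higher.

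Several hepatocyte genes were alike on the 2 arrays. Ambp read 57308 in Alb-Cre+/- and 49186 in DDC, close to the 51175 of wild type hepatocytes. Fga, Fgg and Apob differed by 1.16-fold or less. Hnf4a, a hepatocyte transcription factor, read 3130 in Alb-Cre+/- and 2002 in DDC, 1.56-fold. Alb itself read 118 in Alb-Cre+/- and was not above background in DDC, but its probe gave only 794 in wild type hepatocytes, so it says little of albumin RNA here. Apoa2, Serpinc1, Cyp7a1, Otc, Tdo2, Slc27a5 and Slco1b2 were above background on neither array.

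The 6 genes Apoa1, Apoc3, Arg1, Ass1, Cyp1a2 and Itih3 were over 2-fold above each other EpCAM+ array in Alb-Cre+/-. Ahsg and Vtn were not, with 21376 and 15832 in Alb-Cre+/+. How many of all genes were so was not counted. In Alb-Cre+/+, 10 of 23 hepatocyte genes passed 2-fold above DDC and 0 below it, beside 7.77% and 7.78% of all genes. In Mx1-Cre 5 of 25 passed it above and 1 below, beside 5.08% and 4.71% of all genes. A broader set was taken from arrays outside the comparison, namely the 294 genes over 10-fold higher in wild type hepatocytes than in Mx1-Cre EpCAM+ cells. Of its 246 genes above background on at least 1 of the 2 arrays, 83 (33.7%) were over 2-fold higher in Alb-Cre+/- and 7 (2.85%) lower, with a median log2 difference of 0.59. Above background were 233 of them in Alb-Cre+/-, 147 in DDC and 134 on both arrays. A gene above background on 1 array alone can be called in that direction only, so these shares depend in part on the filter. Over the 134 the median was 0.55. Of the 211 genes over 10-fold lower in wild type hepatocytes than in Mx1-Cre EpCAM+ cells, 21 (9.95%) were higher and 21 (9.95%) lower, with a median of -0.07. Both shares were above those of all genes, 5.69% and 4.59%.

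**Figure D4:**
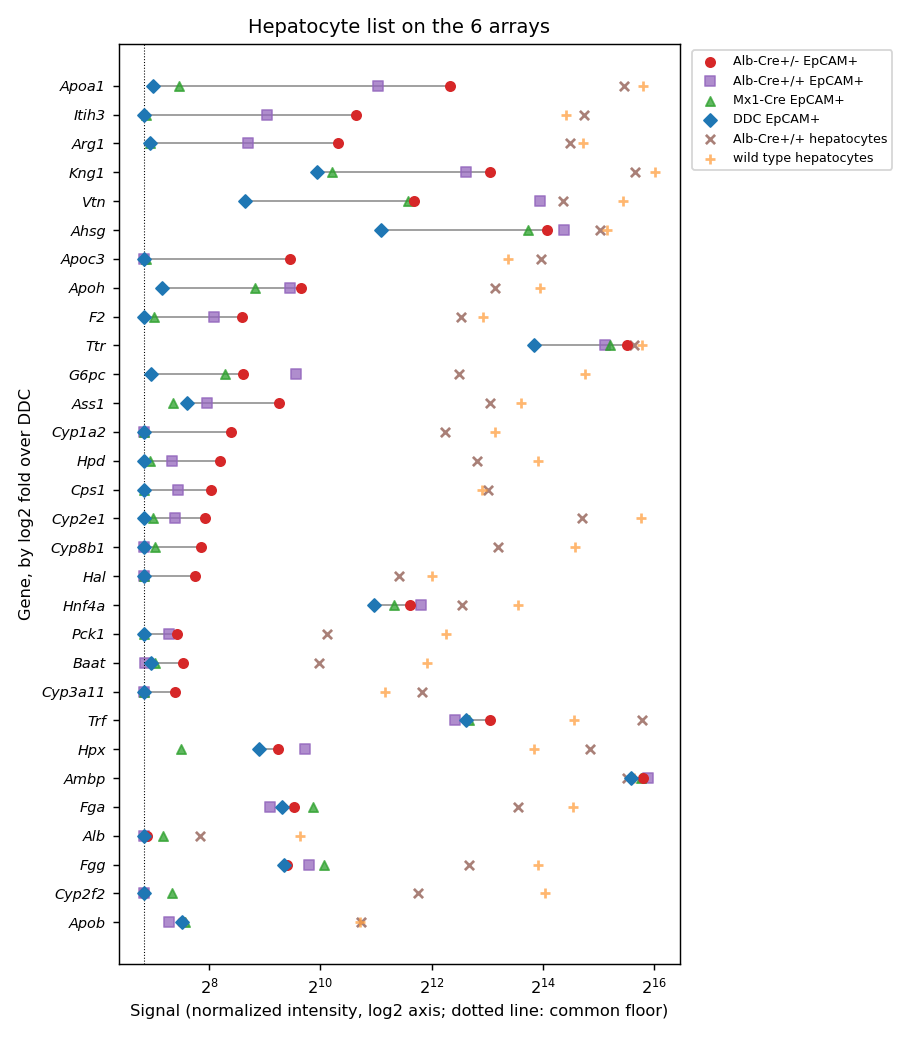
Normalized signal (horizontal, log2 axis) of the 30 hepatocyte genes above background on at least 1 of the 2 arrays, on each of the 6 arrays, ordered by log2 fold of Alb-Cre+/- over DDC, with grey lines joining the 2 arrays compared and the floor of 114 dotted. From Apoa1 (5169 in Alb-Cre+/-, 127 in DDC) down to Cyp8b1 the Alb-Cre+/- mark lies over 2-fold to the right of DDC, and most genes of the list lie far below the hepatocyte arrays on all EpCAM+ arrays, with exceptions such as Ambp and Ttr.

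Of the 5 highest lower bounds over all genes, 4 were of Mup2, Mup6, Hamp and Abcb4, which hepatocytes make, and the fifth was of Vsig4. Mup2, a major urinary protein, read 27367 in Alb-Cre+/- and was not above background in DDC, at least 240.4-fold. Mup6 read 6442 in Alb-Cre+/- with a background signal in DDC, at least 56.6-fold. In Alb-Cre+/+ Mup2 was 212 and Mup6 not above background, and in Mx1-Cre they read 544 and 151. Mup20 read 353 in Alb-Cre+/- and was at background in DDC. Mup3 read 238 in Alb-Cre+/- and 122 in DDC, beside 58412 in wild type hepatocytes. Major urinary proteins are near-identical copies of each other, so their probes may share signal. Hamp, hepcidin, the hormone that limits iron export, read 3594 in Alb-Cre+/- and 762 in Mx1-Cre, and was not above background in Alb-Cre+/+ or DDC, at least 31.6-fold over DDC. Abcb4, the phospholipid exporter of the bile canaliculus, read 2707 in Alb-Cre+/- and was at least 23.8-fold higher. Serpina10, an inhibitor of clotting, read 16337 in Alb-Cre+/- and 1079 in DDC, 15.1-fold.

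Afp, alpha-fetoprotein of fetal liver, read 2270 in Alb-Cre+/- and lay at the floor in DDC, at least 19.9-fold higher. The same probe read 1635 in Alb-Cre+/+ and 10819 in mutant hepatocytes and was not above background in Mx1-Cre or wild type hepatocytes. Dlk1, a marker of hepatoblasts, read 405 in Alb-Cre+/- and was not above background in DDC, at least 3.56-fold, and its other probe gave a log2 difference of 0.04. Neither gene is on the hepatocyte list.

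Haemoglobin genes stood among the largest differences, although red cells had been lysed. Hbb-bs read 6090 in Alb-Cre+/- and 131 in DDC, 46.5-fold, and Hbb-bt 2928 in Alb-Cre+/- with a floor signal in DDC, at least 25.7-fold. Hba-a1 read 1461 in Alb-Cre+/- and was not above background in DDC, at least 12.8-fold. In Mx1-Cre the 3 read 2515, 1432 and 722, while in Alb-Cre+/+ Hbb-bs read a background signal and Hba-a1 124. The beta-globin copies are too alike for their probes to be told apart with certainty. Alas2, the erythroid enzyme of heme synthesis, read the floor signal in Alb-Cre+/- and Klf1 135 in Alb-Cre+/- and 120 in DDC. Of the 5 members of the erythroid and platelet list, 1 (20.0%), Hba-a1, was over 2-fold higher, beside 5.69% of all genes. Pf4 of platelets was 1.65-fold higher.

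Genes of the sex chromosomes differed between the 2 arrays, as was noticed after their values were seen. Xist, the X-linked RNA transcribed from the inactive X chromosome of females, read 2094 in Alb-Cre+/- and was not above background in DDC, at least 18.4-fold. It read 1907 in Alb-Cre+/+ and was not above background in Mx1-Cre. Eif2s3y, a Y-linked gene, stayed at background in Alb-Cre+/- and read 2278 in DDC, at least 20.0-fold lower in Alb-Cre+/-. It was at background in Alb-Cre+/+ too and read 1880 in Mx1-Cre. Its other probe gave a log2 bound of -0.35. Kdm5d and Uty, also Y-linked, were dim throughout, at background in Alb-Cre+/- and at 131 and 126 in DDC. The labels give no sex, and sex and condition cannot be told apart on these 2 arrays. The Mup genes, known to be higher in male than in female mouse liver, were higher on the array with Xist. Whether sex bears on their signal in these sorted fractions was not tested.

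Of the 26 cholangiocyte and oval cell genes, 1 (3.85%) was over 2-fold higher and 5 (19.2%) lower in Alb-Cre+/-, beside 5.69% and 4.59% of all genes, with a median log2 difference of -0.10 and a summed signal of 220631 in Alb-Cre+/- and 238960 in DDC. Only 6 of them were above background in wild type hepatocytes. Epcam, the gene of the sorted antigen, was at background in Alb-Cre+/- and read 177 in DDC, at least 1.55-fold lower, and 162 or less on the other arrays. Its probe thus stayed near the floor of 114 even in cells sorted for the protein, so it says little of Epcam RNA here. Spp1, osteopontin, read 51175 in Alb-Cre+/- and 34656 in DDC. Keratins Krt8 and Krt18 differed by 1.08- and 1.03-fold, and Bicc1 and Pkhd1, genes of cystic duct disease, by 1.04- and 1.02-fold. Cftr, the chloride channel of bile ducts, was 1.21-fold higher. Lower in Alb-Cre+/- were Sctr, the secretin receptor of cholangiocytes, at 209 against 960 in DDC (4.59-fold), and Prom1, the gene of CD133, at background in Alb-Cre+/- and 446 in DDC (at least 3.92-fold). Krt19 read 2311 in Alb-Cre+/- and 6357 in DDC, 2.75-fold lower. Cldn4, a claudin of tight junctions, read 5566 in Alb-Cre+/- and 14119 in DDC, and Anxa3, an annexin, 14673 in Alb-Cre+/- and 39881 in DDC. These were 2.54- and 2.72-fold lower. Other probes of Sctr and Anxa3 stayed under 2-fold. Muc1 read 2627 in Alb-Cre+/- and 1255 in DDC, 2.09-fold higher, short of 2-fold in 4 of 11 alternatives. Of the progenitor genes the study names, Ly6a (Sca-1) read 1623 in Alb-Cre+/- and 678 in DDC, 2.39-fold higher. Cd44, the hyaluronan receptor of many progenitors, was 3.85-fold lower in Alb-Cre+/-, and of its 6 other probes 1 passed 2-fold on that side. Gja1, connexin 43, was 1.69-fold higher. None of the following passed 2-fold: Sox9 (1.37-fold), Kit (1.65-fold) and Thy1 (at least 1.75-fold) were on the higher side, and Tnfrsf12a (1.56-fold), Ncam1 (1.42-fold), Cd24a (1.45-fold), Itgb4 (1.13-fold), Dmbt1 (log2 -0.02) and the keratin Krt7 (1.27-fold) on the lower. Cd34 was above background on neither array.

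Stellate cell and fibroblast genes numbered 18, of which 5 (27.8%) were over 2-fold higher and 0 lower in Alb-Cre+/- (median log2 0.34). Over all genes the shares were 5.69% higher and 4.59% lower. Besides Reln and Ednrb the 5 were Dcn, decorin, at 2507 in Alb-Cre+/- and 700 in DDC, Colec11, at 320 in Alb-Cre+/- and 146 in DDC, and Acta2, at 261 in Alb-Cre+/- and 119 in DDC. Other probes of Dcn and Acta2 fell short of 2-fold. Ednrb, the endothelin B receptor, read 2186 in Alb-Cre+/- and 173 in DDC, and 3503 in Alb-Cre+/+. Reln, which is also made by endothelial cells of lymphatic vessels, read 15518 in Alb-Cre+/- and 316 in DDC. At 49.1-fold it was the highest fold among genes above background on both arrays. Reln read 9429 in Mx1-Cre, 4066 in Alb-Cre+/+, 8647 in mutant hepatocytes and 1878 in wild type hepatocytes. The study names Reln, Ednrb and Mrc1 as candidate oval cell markers from its Alb-Cre+/+ and DDC cells, with PCR for each and staining for Reelin. Des, Pdgfrb, Col1a2 and Hgf read 139 or less on both arrays, and Lrat and Col1a1 were above background on none of the 6. Among the other immune lists, 2 of 8 T, B and NK cell genes (25.0%) were over 2-fold higher and 0 lower. These were Prf1, perforin, at 4015 in Alb-Cre+/- and 650 in DDC (6.18-fold), and Klrd1 (2.10-fold). Cd3e read 184 in Alb-Cre+/- and 140 in DDC. None of 7 neutrophil genes passed 2-fold in either direction (0 higher, 0 lower), with S100a9 at 405 in Alb-Cre+/- and 367 in DDC. Of 10 dendritic cell and MHC class II genes, 1 (10.0%) was over 2-fold higher and 0 lower. This was Siglech of plasmacytoid dendritic cells, at 3.74-fold, and the class II gene H2-Aa was 1.82-fold higher.

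The genes furthest below DDC belonged to none of these cell type lists. Msln, mesothelin, read 210 in Alb-Cre+/- and 3482 in DDC, 16.6-fold lower. Cfap69 read 176 in Alb-Cre+/- and 2109 in DDC, 12.0-fold lower. Slc5a8, a monocarboxylate transporter, lay at the floor in Alb-Cre+/- and read 1330 in DDC, at least 11.7-fold lower. Fjx1 (8.73-fold), Traf1, an adaptor of TNF receptors (at least 8.02-fold), Nupr1, a stress-induced nuclear protein (8.0-fold), Atg9b (6.69-fold), Lrrn1 (6.45-fold) and the Wnt ligand Wnt7a (6.25-fold) came next. Msln read 288 in Alb-Cre+/+ and 125 in Mx1-Cre, and Cfap69 286 in Alb-Cre+/+ and 1164 in Mx1-Cre. Other probes of Fjx1 and Traf1 were lower by less than 2-fold. Among lower bounds below DDC, Tmem25 was at least 9.12-fold, Klhdc9 at least 6.89-fold, Sspn at least 5.95-fold and Foxq1 at least 5.54-fold lower.

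Of 23 cytokine and chemokine genes, 6 (26.1%) were over 2-fold lower and 1 (4.35%) higher, beside 4.59% and 5.69% of all genes. The median log2 difference was -0.14. Ccl2, which draws monocytes, read 153 in Alb-Cre+/- and 1168 in DDC, 7.62-fold lower. Tnfaip3, an NF-kappaB feedback inhibitor, read 559 in Alb-Cre+/- and 1902 in DDC, 3.40-fold lower. Cxcl2, a neutrophil chemokine, read 1236 in Alb-Cre+/- and 3260 in DDC, 2.64-fold lower. Cxcl16, Tnf and Lcn2 were 2.26-, 2.15- and 2.13-fold lower, though other probes of Cxcl2, Cxcl16 and Tnf were lower by less than 2-fold. Ccl4 was 2.49-fold higher, at 412 in Alb-Cre+/- and 165 in DDC. Cxcl1, the brightest of the list, read 22159 in Alb-Cre+/- and 24766 in DDC.

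Immediate early genes are induced within minutes by stress and growth factors. Of 21, 4 were over 2-fold lower in Alb-Cre+/- and 0 higher, beside 4.59% and 5.69% of all genes. The median log2 difference of the list was -0.45. Ier2, Egr1 and Klf2 were on the higher side by less than 2-fold. Klf4 read 526 in Alb-Cre+/- and 1622 in DDC, and Egr2 3204 in Alb-Cre+/- and 7288 in DDC. Hspa1a, a heat shock gene, was 2.81-fold lower at the probe read, with a log2 difference of 0.20 at the other. Egr3 was 2.02-fold lower, with a log2 difference of 0.11 at its other probe, and another probe of Klf4 gave -0.41. Fos, at 13089 in Alb-Cre+/- and 23780 in DDC, and Atf3, at 9766 in Alb-Cre+/- and 19480 in DDC, fell just short of 2-fold. Egr1 read 62262 in Alb-Cre+/- and 47514 in DDC. In wild type hepatocytes Fos read 968 and Atf3 304.

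Of 23 cell cycle genes, 6 (26.1%) were over 2-fold higher in Alb-Cre+/- and 0 lower, beside 5.69% and 4.59% of all genes, with a median log2 difference of 0.70, and 0.50 with median scaling. Mcm5, of the replicative helicase, read 3823 in Alb-Cre+/- and 1368 in DDC. Ccnd1, cyclin D1, read 33432 in Alb-Cre+/- and 13815 in DDC. Plk1, a mitotic kinase, read 596 in Alb-Cre+/- and 241 in DDC. Rrm2, Cdc20 and Bub1b were 2.44-, 2.40- and 2.05-fold higher, and Mcm6 1.97-fold. Top2a, Aurkb and Birc5 differed by 1.08-fold or less, and Tyms was 1.20-fold lower. Of 16 targets of p53, 2 (12.5%) were over 2-fold higher, Gtse1 (3.56-fold) and Sesn1 (2.0-fold), and 0 lower. At 1 other probe of Gtse1 the log2 difference was -0.03. Cdkn1a, the p21 inhibitor, was 1.53-fold higher, at 5531 in Alb-Cre+/- and 3627 in DDC. Among 12 genes of the DDB1-CUL4 ligase, 1 was over 2-fold higher and 1 lower, or 8.33% each, beside 5.69% and 4.59% of all genes. Cdt1, a replication licensing factor that the ligase degrades, read 1998 in Alb-Cre+/- and 837 in DDC, 2.39-fold higher. Ddb2, the damage-sensing partner of the ligase, read 408 in Alb-Cre+/- and 842 in DDC, 2.06-fold lower. Ddb1 was 1.55-fold lower in Alb-Cre+/-, and where its probe lies relative to the floxed exons is not known here.

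Further lists split. Of 19 NRF2 targets, the transferases Gsta1, Gsta2 and Gstm1 were 3.81-, 2.63- and 2.13-fold higher, and Gsta4, Cbr3 and Mt1 were 3.02-, 2.62- and 2.13-fold lower. Gsta1 read 11951 in mutant hepatocytes and 251 in wild type hepatocytes. Of 18 heme and iron genes, 2 (11.1%), Slc11a1 and Hamp, were over 2-fold higher and 1 (5.56%), Hp, lower. Slc11a1, the iron transporter of macrophage phagosomes, read 2090 in Alb-Cre+/- and 460 in DDC, 4.55-fold higher. Hp, haptoglobin, read 621 in Alb-Cre+/- and 2697 in DDC, 4.34-fold lower, with a log2 difference of -0.29 at its other probe. Alas1, the enzyme that starts heme synthesis, was 1.30-fold higher, and Fech, which ends it, stayed at background in Alb-Cre+/- and read 117 in DDC. Of 18 interferon response genes, 1 (5.56%) was over 2-fold higher and 2 (11.1%) lower. Ifit3 was 4.43-fold higher, and Gbp2 and Rsad2 were 2.17- and 2.14-fold lower. Of 15 scavenger and lipid genes, 4 (26.7%) were over 2-fold higher and 2 (13.3%) lower. Among them, Lpl, lipoprotein lipase, read 3047 in Alb-Cre+/- and 224 in DDC, 13.6-fold higher, and Pparg was 3.32-fold lower. Apoe and Gpnmb were 2.27- and 2.73-fold higher.

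**Figure D5:**
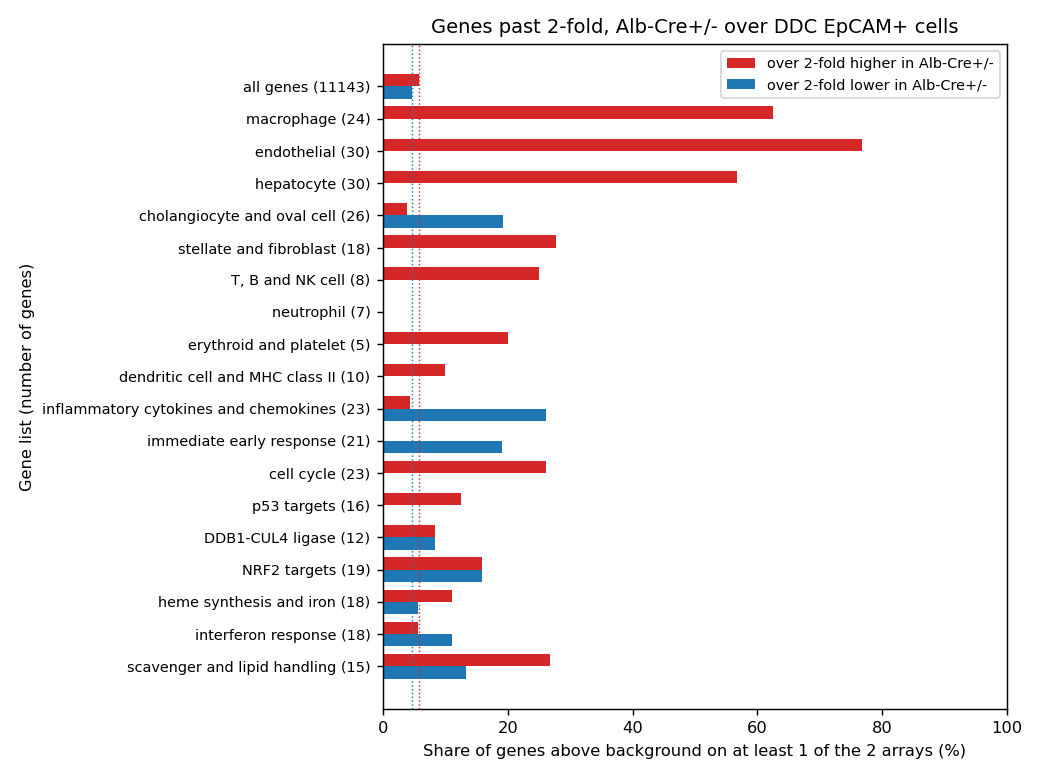
Share of the genes of each list (percent, horizontal) that were over 2-fold higher (red) or lower (blue) in Alb-Cre+/- than in DDC EpCAM+ cells, with the number of genes above background on at least 1 of the 2 arrays in brackets. Dotted lines mark the shares over all genes, 5.69% higher and 4.59% lower. The endothelial (76.7%), macrophage (62.5%) and hepatocyte (56.7%) lists have the longest red bars and no blue bar, and the cytokine list the longest blue bar (26.1%).

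Of the 634 genes over 2-fold higher in Alb-Cre+/-, 84 stood in any of the 18 lists and 55 in the macrophage, endothelial or hepatocyte lists. The macrophage, endothelial and hepatocyte differences were seen on the same pair of arrays as the stellate cell, haemoglobin and sex-linked differences. A single pair cannot show whether these vary together, and their part in the other differences was not tested. Several probes of a gene did not always tell the same, and beside the genes given above another probe stayed under 2-fold for Muc1 (log2 0.18), Xist (0.21), Hbb-bt (0.22), Hbb-bs (0.92), Cdc20 (0.88), Ddb2 (-0.17) and Cbr3 (-0.82). Of 137 named or listed genes past 2-fold, 50 had another probe above background, and in 17 of these all the other probes passed 2-fold on the same side. In 33 at least 1 did not, and in 0 did another probe pass 2-fold on the opposite side.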

How the data were processed

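RNA of the 6 samples was hybridised to Illumina mouse bead arrays, 1 array each. Per the labels and the study's methods, the authors summarised beads with GenomeStudio and deposited, for each of 45281 probes, a non-normalized signal intensity, its detection p-value against negative controls, the bead standard error and the bead number. Another deposited table holds intensities that the authors quantile normalized. The array has no sequencing depth, and its precision rests on the beads (median standard error 5.98% of the signal in Alb-Cre+/- and 5.65% in DDC) and on 1 array a side. Probes above background numbered 16488 in Alb-Cre+/- and 17152 in DDC, within 11429 to 17152 over the 6 arrays.

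Normalization here started from the raw intensities of 21827 probes whose detection p fell below 0.05 on any of the 6 arrays, by quantiles over those arrays (limma 3.58.1, R 4.3.3), as in the study's methods. Signals were raised to a common floor, the median over arrays of the lowest signal above background, and taken to log2. By GEO's platform annotation 34885 probes had 1 gene symbol, 18 several and 10378 none; 2 of the last were named from the study's list. A gene was read at the probe that the study lists, else at its brightest. A fold against a background signal is a bound against the highest of 3 values: the floor, the array's lowest above-background signal and the probe's own signal. Gene folds past 2, the study's threshold, were counted with Python 3.11.15. No test was possible with 1 array a side. The script was tested on simulated data.

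Genes to name were drawn from the 10 highest and 10 lowest folds, the 5 highest and 5 lowest bounds, the defining markers and the members past 2-fold of the macrophage, endothelial and hepatocyte lists, the defining markers and up to 4 members with the largest folds in each direction of every other list, and the genes the study names. Further genes are named as examples of list members near no difference, or were chosen after their values were seen (the sex-linked, haemoglobin, Mup3 and Mup20 values). The members and the 18 lists (415 genes) were chosen with earlier results of these data known. Other settings tried were a stricter detection p (0.01), no filter on detection, quantile normalization over 4 or 2 arrays, median scaling, normexp background with an offset of 16, the authors' normalized intensities, a floor at 1, the mean of probes, the brightest probe and only genes above background on both arrays.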

Additional observations from a re-analysis of the deposited data

How the results depend on the processing

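Against 634 genes higher and 511 lower, median scaling gave 473 and 868, with 1 macrophage gene lower in place of 0, and normexp background correction gave 1100 and 1029; the cause was not tested. With only genes above background on both arrays, 9 hepatocyte genes in place of 17 were over 2-fold higher, since genes with a bound left the count. The other counts of genes and of macrophage, endothelial and hepatocyte markers stayed within 1.5 times over the 11 alternatives. Of 137 named or listed genes past 2-fold, 118 stayed past it in every alternative that gave them a fold, and 0 changed sign. The 19 that did not included Csf1r and Muc1 (4 alternatives each), Cyp8b1, Egr3, Gstm1 and Sesn1 (3 each) and Pecam1 (2). No paired analysis was possible because each condition had 1 array and the labels give no replicate numbers, and for the same reason no array could be left out. Signals at the floor of 114 have no order, and folds against them are bounds.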
